A study of Canis lupus familiaris with 6 samples.

Results

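ATP-binding cassette (ABC) proteins and P-type ATPases are the families of membrane proteins that move drugs, lipids and ions across cell membranes at the expense of ATP. Their genes were taken from the array by symbol: every non-control probe whose gene name is that of an ABC gene of subfamilies A to G, of a Na,K-ATPase alpha or beta subunit, of a calcium or copper pump, of a phospholipid flippase, or of a P5 ATPase. The rule found 64 genes with 111 probes, among 13684 symbols and 43603 probes on the array. Of these, 32 were ABC genes with 52 probes and 32 were P-type ATPase or subunit genes with 59 probes. A single probe stood for 38 genes, and 26 genes had 2 to 6 probes.

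RNA was measured in 3 canine mammary tumor cell lines. P114 comes from an anaplastic cancer, the CMT-U27 line from a simple carcinoma and the CMT-U309 line from a spindle cell tumor. All groups grew in RPMI-1640 medium with serum. For co-culture, myeloid-derived suppressor cells (MDSCs), which had been sorted from blood of dogs without disease, were placed in culture inserts above the tumor cells for at least 72 h according to the sample descriptions (the methods of the study give a shorter time), and monoculture was the same line without MDSCs. Each line was hybridized on 2 Agilent 2-colour arrays, with co-culture RNA in Cy5 on replicate 1 and in Cy3 on replicate 2, so that the 6 arrays held 12 channels but only 3 independent pairs of RNA. A line is a single culture per condition here, nothing in the descriptions gives a second culture of it, and the tests therefore measure the spread between these samples.

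ABC transporters pair nucleotide-binding domains, which bind and split ATP, with membrane domains that carry the substrate, and most of those in mammals export it. ABCB1 (P-glycoprotein), ABCG2 (breast cancer resistance protein) and the ABCC multidrug resistance proteins are known for removing anticancer drugs from tumor cells. ABCA and other ABCG members carry cholesterol and phospholipids, and most ABCD members work in peroxisomes. P-type ATPases form a phosphorylated intermediate during each transport cycle. The Na,K-ATPase keeps the sodium and potassium gradients, the ATP2A, ATP2B and ATP2C pumps clear calcium from the cytosol, ATP7A and ATP7B move copper, and the P4 group flips phospholipids between membrane leaflets.

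Several properties of the arrays touch every value. The 2 arrays of P114, turned to the same direction, opposed each other. Their log2 ratios correlated at -0.36 over all genes tested and at -0.31 over the transporter and pump genes. The same correlations were 0.29 and 0.24 in CMT-U27, and -0.03 and 0.22 in CMT-U309. Over all genes the arrays of CMT-U309 thus did not agree either. The members of these families had the same sign on both P114 arrays in 18 of 62 cases (29.0%, all genes 40.5%). They did so in 41 of 62 in CMT-U27 (66.1%, all genes 64.7%) and in 36 of 62 in CMT-U309 (58.1%, all genes 53.7%). Feature Extraction, the scanner software, flags a spot as well above background from its signal and the spread of the background, and 53.0% to 81.0% of spots per channel carried that flag, fewer in the co-culture channel on 5 of 6 arrays. The arrays of a line shared a slide and a scan, so differences between lines and between slides cannot be told apart. Of the epithelial markers tested (CDH1, EPCAM, KRT14 and KRT19), the summed signal was 106930 to 124929 in CMT-U27 against 4160 to 5600 in P114 and 4402 to 7569 in CMT-U309. The 5 mesenchymal markers tested (CDH2, COL1A1, COL1A2, SPARC and VIM) summed to 6521 to 9690 in CMT-U27, 270666 to 391163 in P114 and 377235 to 472143 in CMT-U309. P114, labelled as a cancer, thus had a low epithelial and a high mesenchymal sum. EPCAM and KRT19 were nonetheless called higher in P114 than in CMT-U309, by 2.50 and 4.96. P114 over CMT-U27 was -6.24 and -6.37 for them, and CDH1 was not called between P114 and CMT-U309. KRT14 did not follow the epithelial sum, with mean levels of 11.86 in P114, 12.58 in CMT-U309 and 11.05 in CMT-U27 on the log2 scale. It was the brightest epithelial marker in P114 and in CMT-U309, so it weighs most in their sums. Fewer cells of a type and less RNA per cell cannot be told apart in such bulk RNA.

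The probes behind the main values are given first, so that a reader can see which stretch of each transcript was measured. All are 60 bases long, run 5′ to 3′ and have canFam2 coordinates from the array files, with the strand the file states. Where the genomic interval is longer than the probe, the probe matches separate stretches within it. The probes of the 3 genes that passed the thresholds between co-culture and monoculture come first: ATP8B4 at chr30:18879111-18879170 (minus strand), ABCC12 at chr2:69823473-69823532 and chr2:69855939-69855998 (plus strand), and ABCC8 at chr21:43152885-43154695, chr21:43152793-43154737 and chr21:43172211-43173357 (minus strand), with a further ABCC8 probe that carries no coordinates. The brightest probe of a gene stands for it in all counts and is listed first.
ATP8B4, the only probe: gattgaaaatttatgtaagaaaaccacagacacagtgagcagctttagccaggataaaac
ABCC12, brightest probe: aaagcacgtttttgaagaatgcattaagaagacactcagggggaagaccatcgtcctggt
ABCC12, probe 2: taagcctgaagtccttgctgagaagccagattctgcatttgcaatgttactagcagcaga
ABCC8, brightest probe: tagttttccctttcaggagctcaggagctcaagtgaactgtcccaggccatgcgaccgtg
ABCC8, probe 2: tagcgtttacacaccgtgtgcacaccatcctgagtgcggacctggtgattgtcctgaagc
ABCC8, probe 3: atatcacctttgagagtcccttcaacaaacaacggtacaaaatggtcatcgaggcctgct
ABCC8, probe 4, without coordinates: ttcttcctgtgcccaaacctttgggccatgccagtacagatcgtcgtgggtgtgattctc

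The drug-efflux genes with the largest differences between lines were ABCB1, read by 3 probes on the minus strand of chromosome 14 (chr14:16595326-16595385, chr14:16611681-16611740 and chr14:16632997-16633056), and ABCG2, read by a single probe at chr32:14404161-14404220 on the minus strand. The ABCB1 probes share no stretch of sequence with each other, so they are separate readings of the same transcript.
ABCB1, brightest probe: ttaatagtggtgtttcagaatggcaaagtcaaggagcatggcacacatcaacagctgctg
ABCB1, probe 2: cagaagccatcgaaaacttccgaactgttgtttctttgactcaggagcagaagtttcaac
ABCB1, probe 3: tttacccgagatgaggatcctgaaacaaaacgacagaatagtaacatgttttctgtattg
ABCG2, the only probe: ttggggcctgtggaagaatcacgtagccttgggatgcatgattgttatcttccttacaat

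Detection came before any comparison. Of the 64 genes, 62 had at least 1 probe that could be tested, while ABCC6 and ABCG5 had none because their signal never rose above an intensity of 10. Among the 62, 31 were well above background in all 12 channels, 25 in some and 6 in none (ABCB11, ABCC9, ABCC11, ABCD2, ATP10B and ATP13A4). P114 had 33 genes well above background in all of its 4 channels and 15 in none. The corresponding numbers were 36 and 9 in CMT-U27, and 34 and 7 in CMT-U309.

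The genes detected in every channel came from most functional groups. Among drug exporters they included ABCB1, ABCC1, ABCC4, ABCC5 and the copper pump ATP7B. Among lipid and sterol carriers they included ABCA4, ABCA6, ABCB4, ABCG1 and ABCG8. Among organelle transporters they included ABCD4 and the peroxisomal ABCD3. ABCE1, a ribosome recycling factor, and ABCF3, which has no membrane domain, were also detected throughout. The beta subunits ATP1B1 and ATP1B3 of the Na,K-ATPase were detected as well. Of 9 calcium pumps 6 were detected throughout, namely ATP2A1, ATP2A2, ATP2A3, ATP2B1, ATP2B4 and ATP2C1. The flippases ATP9A, ATP9B, ATP10D and ATP11B and the P5 ATPases ATP13A1 and ATP13A3 also belonged to the group.

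The lines differed in the expression of these genes, drug exporters among them. P114 had the highest ABCB1 signal, CMT-U309 the highest ABCG2 signal and CMT-U27 the highest ABCC3 signal. A gene was called between lines when limma's adjusted p, over all probes tested, was under 0.05 and the fold change was over 2, and a level is the mean log2 processed signal of an RNA over its 2 arrays after scaling of the channels to a common median. Between P114 and CMT-U27, 18 of 62 genes were called (29.0%). Of these, 9 were higher in P114, where 11.3% of all genes were, and 9 were higher in CMT-U27, where 15.4% of all genes were. Between P114 and CMT-U309, 8 of 62 were called (12.9%), 5 higher in P114 (7.32% of all genes) and 3 higher in CMT-U309 (8.02% of all genes). Between CMT-U27 and CMT-U309, 18 of 62 were called (29.0%), 8 higher in CMT-U27 (17.9% of all genes) and 10 higher in CMT-U309 (14.0% of all genes). The shares of members lie near those of all genes.

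The scaling mattered to the balance of directions and not to the direction of any call. Without scaling, the median over all genes was -0.43 for P114 over CMT-U27, -0.69 for P114 over CMT-U309 and -0.23 for CMT-U27 over CMT-U309, against 0.04, 0.08 and 0.08 with it. The splits of called members then became 6 higher and 14 lower, 3 higher and 21 lower, and 7 higher and 18 lower, in the same order and naming the first line. The matching splits of all genes were not counted. In all 44 calls the difference had the same direction in monoculture RNA alone and in co-culture RNA alone. A call rests on the mean of these same differences, so the thresholds nearly fix that outcome and it is no separate test. With normexp background correction, loess and Aquantile, which draw low signals together, all 44 kept their direction and 23 were called. These were 17 of the 24 calls in which both lines were well above background in all 4 channels and 6 of the other 20. The genes left with no call were ABCA5, ABCA6, ABCB8, ABCC1, ABCC2, ABCC3, ABCD3, ABCG1, ABCG8, ATP1A4, ATP7A, ATP8A1 and ATP8B2. The median absolute log2 difference of members was 0.72, 0.54 and 0.73 in the 3 pairs, beside 0.60, 0.44 and 0.66 over all genes.

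ABCB1, which pumps many structurally unlike drugs out of cells, had levels of 11.21 in monoculture and 11.14 in co-culture in P114. The levels were 7.28 and 7.36 in CMT-U27 and 8.15 and 8.21 in CMT-U309. The 4 channels of P114 lay above all channels of the other lines, and all 12 channels were well above background. P114 exceeded CMT-U27 by 3.86 on the log2 scale (SE 0.15, 14.5-fold, adjusted p = 2.66e-08) and CMT-U309 by 2.99 (SE 0.15, 7.97-fold, adjusted p = 3.34e-07). The other probes gave 4.62 and 3.29 against CMT-U27 and 3.30 and 2.92 against CMT-U309, all called, and probe 2 also called CMT-U309 over CMT-U27, at 1.33. ABCB4, the phosphatidylcholine floppase whose probe lies close by on chromosome 14, had levels of 6.19 to 7.02 in the 6 RNA samples and was called in no pair.

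ABCG2, an exporter of drugs and of urate, showed the largest difference of any member. Its levels in monoculture and co-culture were 3.83 and 4.33 in P114, 4.59 and 3.40 in CMT-U27, and 9.60 and 9.05 in CMT-U309. It was well above background in 2 of 4 channels of P114, in 2 of 4 of CMT-U27 and in all 4 of CMT-U309, and the CMT-U309 channels did not overlap with the others. CMT-U309 exceeded P114 by 5.24 (SE 0.35, 37.9-fold, adjusted p = 3.15e-06) and CMT-U27 by 5.33 (SE 0.35, 40.2-fold, adjusted p = 1.18e-06). The size depended on how low signals were treated: with normexp background correction, which adds an offset to every signal, the differences were 2.57 and 2.55. P114 and CMT-U27 differed by 0.09, which was not called.

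**Figure D1:**
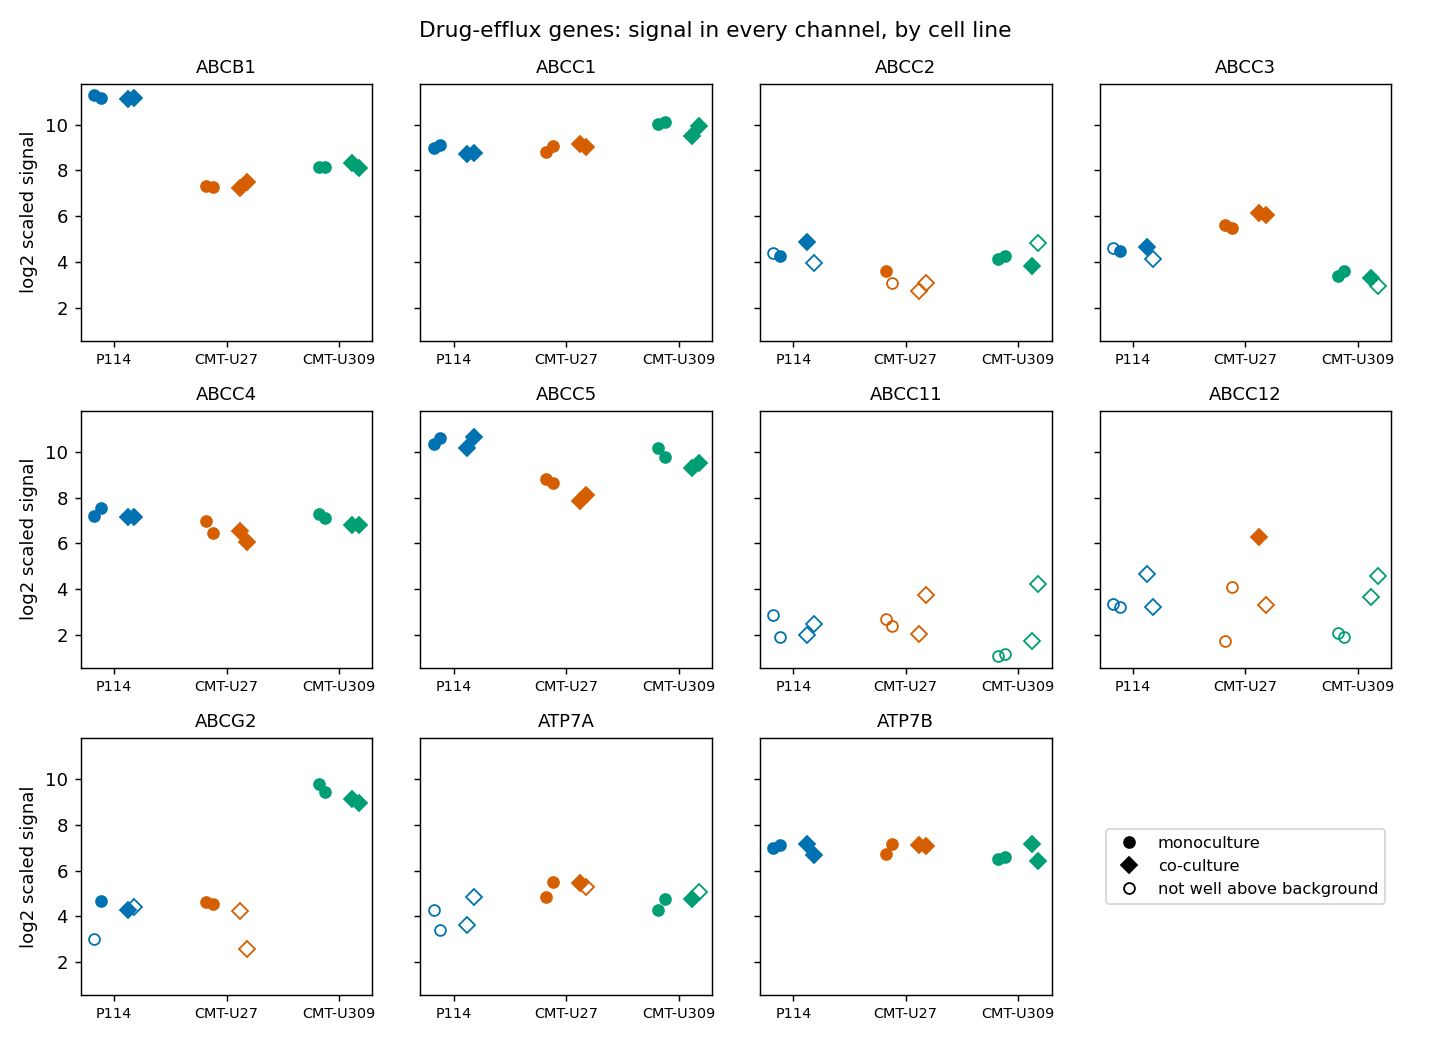
Log2 scaled processed signal (y axis) of 11 drug-efflux genes in each of 12 channels, grouped by cell line (x axis), with circles for monoculture, diamonds for co-culture and open symbols where the spot was not well above background. ABCB1 separates P114 (11.21 and 11.14) from both other lines, and ABCG2 separates CMT-U309 (9.60 and 9.05). Co-culture and monoculture symbols of a line lie close together for ABCB1 but not for ABCC5, whose log2 ratios reach -0.96 in CMT-U27.

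The ABCC exporters of conjugated and organic anions divided the lines in other ways. ABCC3 was at 5.54 and 6.10 in CMT-U27, 4.55 and 4.39 in P114, and 3.50 and 3.14 in CMT-U309, in monoculture and co-culture. CMT-U27 exceeded CMT-U309 by 2.50 (SE 0.32, 5.66-fold, adjusted p = 0.000132) and P114 by 1.35, and P114 exceeded CMT-U309 by 1.15, so that all 3 pairs were called. The order of the lines rests on dim signals, since ABCC3 was well above background in 2 of 4 channels of P114 and 3 of 4 of CMT-U309. With normexp no pair was called (0.48, 0.28 and 0.20), and without scaling P114 over CMT-U309 was 0.37 and not called. ABCC5, which also carries cyclic nucleotides, was at 10.47 and 10.39 in P114, 8.72 and 7.98 in CMT-U27, and 9.96 and 9.41 in CMT-U309. P114 exceeded CMT-U27 by 2.08 (SE 0.18, adjusted p = 8.33e-06) and CMT-U309 exceeded CMT-U27 by 1.33, whereas P114 and CMT-U309 were not called at this probe. A second ABCC5 probe gave 2.69 and 1.63 for these differences and called P114 over CMT-U309 at 1.06, and the third, well above background in 3 of 12 channels, was called in no pair.

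ABCC1, ABCC2 and ABCC4 varied less. ABCC1 was at 10.08 and 9.72 in CMT-U309 and between 8.74 and 9.07 in the other RNA samples, and CMT-U309 over P114 was just called at 1.01 (SE 0.17, adjusted p = 0.00136). ABCC2, a canalicular anion exporter, was dim, well above background in 6 of 12 channels, and P114 exceeded CMT-U27 by 1.24 and CMT-U309 exceeded CMT-U27 by 1.13. ABCC4, whose levels ran from 6.29 to 7.37, and ATP7B, at 6.54 to 7.10, were called in no pair. ATP7A, the other copper exporter, was well above background in 0 of 4 channels of P114 and in 3 of 4 of CMT-U27, where it was at least 1.89-fold higher (adjusted p = 0.00534). A second ATP7A probe gave 1.49 for that difference and also called CMT-U27 over CMT-U309, at 1.44. ABCC11 was well above background nowhere, and ABCC12 in 1 channel of CMT-U27.

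Of the 10 lipid carriers tested, 3 were called between P114 and CMT-U27 (26.6% of all genes), 0 between P114 and CMT-U309 (15.3% of all genes) and 5 between CMT-U27 and CMT-U309 (31.9% of all genes). ABCA1, the cholesterol exporter that loads nascent high-density lipoprotein, was at 8.42 and 8.17 in P114, 4.91 and 3.89 in CMT-U27, and 7.63 and 6.98 in CMT-U309. P114 exceeded CMT-U27 by 3.89 (SE 0.23, 14.9-fold, adjusted p = 5.56e-07) and CMT-U309 did so by 2.90 (7.48-fold). In CMT-U27 it was well above background in 2 of 4 channels, both of monoculture, and with normexp the differences were 1.54 and 1.06, still called. P114 over CMT-U309 was 0.99 at this probe, below the fold threshold, and 1.53 at the second probe, which was called. ABCG1, a partner of ABCA1 in sterol export, was higher in P114 than in CMT-U27 by 1.24. ABCG8, which forms a sterol transporter with the product of ABCG5, a gene that could not be tested, was higher in CMT-U309 than in CMT-U27 by 1.61 (SE 0.19, adjusted p = 7.27e-05). ABCA4 and ABCA6 were higher in CMT-U309 than in CMT-U27 by 1.17 and 1.26. ABCA5 passed the thresholds but was not well above background in CMT-U27 and in 1 channel of each other line, so no fold is given.

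The Na,K-ATPase subunits did not vary together. ATP1B1, the beta subunit that brings the pump to the membrane and holds epithelial cells together, was at 14.56 and 14.33 in CMT-U27, 13.03 and 13.04 in P114, and 10.41 and 10.29 in CMT-U309. CMT-U27 exceeded CMT-U309 by 4.09 (SE 0.13, 17.1-fold, adjusted p = 7.79e-09) and P114 by 1.41, and P114 exceeded CMT-U309 by 2.68, with a second probe at 4.07, 1.55 and 2.53. ATP1B3 was called in no pair and had levels of 10.35 to 11.39. ATP1A4 was called higher in P114 than in CMT-U27 by 1.18.

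The calcium pumps of the secretory pathway differed between lines, each in its own way. ATP2C2, a Golgi pump expressed in mammary epithelium, was at 8.17 and 8.61 in CMT-U27, 4.18 and 4.32 in P114, and 4.14 and 4.15 in CMT-U309. CMT-U27 exceeded P114 by 4.14 (SE 0.24, 17.7-fold, adjusted p = 5.58e-07) and CMT-U309 by 4.24 (18.9-fold, adjusted p = 4.12e-07). It was well above background in 1 of 4 channels of P114 and 3 of 4 of CMT-U309, and with normexp the differences were 1.65 and 1.69, still called. Its housekeeping relative ATP2C1 was lowest in CMT-U309, at 9.21 and 8.95 against 10.11 to 10.78 in the others, with P114 higher by 1.61 and CMT-U27 by 1.21. Of the other ATP2C1 probes, 2 of 4 called P114 over CMT-U309 and none called CMT-U27 over CMT-U309.

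Pumps of the endoplasmic reticulum split by isoform. ATP2A2 was at 11.08 and 10.81 in CMT-U27, 9.52 and 9.57 in P114, and 8.77 and 8.46 in CMT-U309. CMT-U27 exceeded CMT-U309 by 2.33 (SE 0.15, adjusted p = 1.04e-06) and P114 by 1.40. The 4 other probes gave 0.91 to 2.11 and 0.82 to 1.55 for these differences, with 3 and 2 of them called. ATP2A3 was instead highest in CMT-U309, at 13.09 and 13.49 against 11.78 and 12.14 in CMT-U27, a difference of 1.33 (SE 0.15, adjusted p = 4.02e-05). The plasma membrane pumps ATP2B1 and ATP2B4 were called in no pair at their brightest probes, and 1 of 5 further ATP2B1 probes called P114 over CMT-U27 at 1.25. A second ATP2A1 probe, well above background in 2 of 4 channels of CMT-U27, called P114 over CMT-U27 at 1.16, where the brightest probe was not called. The second ATP2B2 probe passed the thresholds for CMT-U309 over CMT-U27 but was well above background in 0 of 4 channels of CMT-U27 and 2 of 4 of CMT-U309, so no fold is given.

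Flippases included some of the widest differences. ATP8A1, which moves phosphatidylserine to the cytosolic leaflet, was at 6.98 and 7.47 in CMT-U27 and well above background in 0 of 4 channels of P114 and 1 of 4 of CMT-U309. CMT-U27 was at least 6.75-fold higher than P114 (adjusted p = 3.47e-06) and exceeded CMT-U309 by 3.11 (8.64-fold). With normexp the values were 0.89 and 0.88, and neither was called. ATP10D, a glucosylceramide flippase, was at 13.54 and 13.48 in P114, 11.44 and 11.18 in CMT-U27, and 11.04 and 10.62 in CMT-U309. P114 exceeded CMT-U27 by 2.20 (SE 0.14) and CMT-U309 by 2.68, and the second probe gave 1.59 and 2.15. ATP9A, an endosomal member, was lowest in P114, at 8.48 and 8.40, and was higher by 1.65 in CMT-U27 and by 2.24 in CMT-U309 (adjusted p = 2.46e-06). ATP8B2, well above background in 7 of 12 channels, was at 2.88 and 3.04 in CMT-U27 and was called higher in P114, at 4.91 and 5.01, and in CMT-U309, by 1.84. No P5 ATPase was called in any pair.

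**Figure D2:**
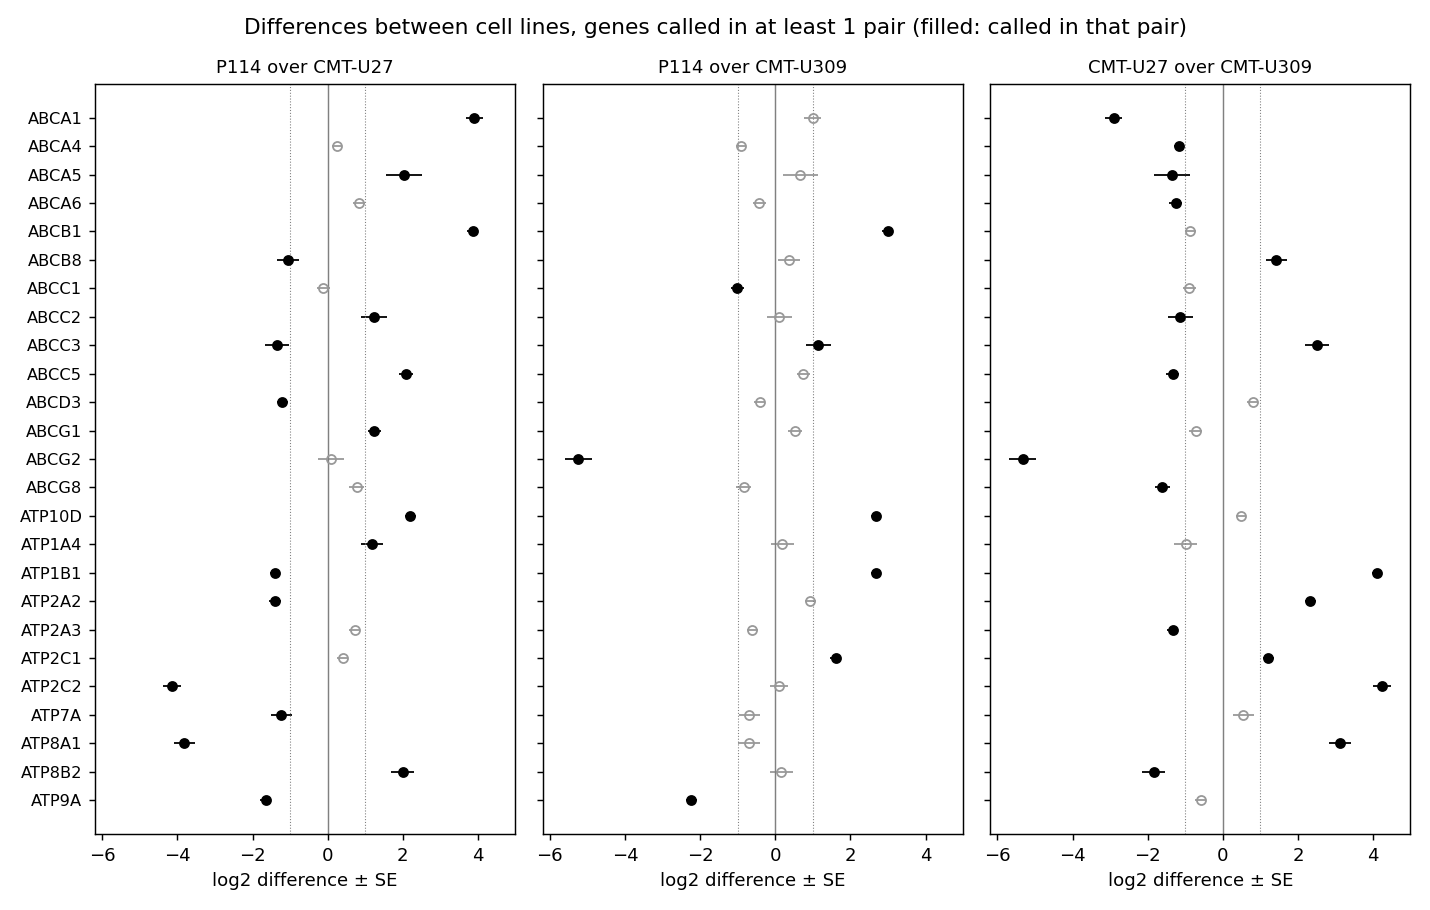
Log2 difference between cell lines (x axis, ± SE) for 25 of the 26 genes called in at least 1 pair (y axis), a panel for each pair, with filled points for calls and dotted lines at a fold change of 2. ABCG2 lies farthest to the left in both panels with CMT-U309 (-5.24 and -5.33), and ATP2C2, ATP1B1 and ATP8A1 lie to the right in CMT-U27 over CMT-U309 (4.24, 4.09 and 3.11).

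In all, 26 of 62 genes were called in at least 1 pair of lines (42.2% of all genes), 16 of them in at least 2 pairs (27.2% of all genes), and 36 in none. Among the organelle transporters, ABCB8 of mitochondria was higher in CMT-U27 than in P114 by 1.05 and than in CMT-U309 by 1.43, and ABCD3, a peroxisomal fatty acid importer, was higher in CMT-U27 than in P114 by 1.21. A second ABCD3 probe gave 1.18 and was called, and the third gave 0.99 and was not. The genes called in a pair under every one of the 14 alternatives tried were ABCA1, ABCB1, ABCC5, ATP10D, ATP1B1, ATP2C2 and ATP9A for P114 against CMT-U27. For P114 against CMT-U309 they were ABCB1, ABCG2, ATP10D, ATP1B1 and ATP9A, and for CMT-U27 against CMT-U309 they were ABCA1, ABCC5, ABCG2, ATP1B1, ATP2A2, ATP2A3 and ATP2C2.

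The second comparison asked how co-culture with MDSCs changed these genes. Most of them moved little. The median log2 ratio of co-culture over monoculture, taken over the 3 lines after averaging each dye-swap, was 0.0012 over the 62 genes and 0.0019 over all genes, and 31 of the 62 were above 0. By line, the members had medians of 0.08 (CMT-U27), 0.02 (CMT-U309) and -0.08 (P114). With limma's moderated test and the thresholds of the methods, more than a 2-fold change and an unadjusted p below 0.05, ATP8B4 and ABCC12 were called higher (2 of 62, with 0.668% of all genes called higher) and ABCC8 was called lower (1 of 62, with 0.167% of all genes called lower). With the methods' t-test on the 3 lines 0 of 62 were called, and with normexp and loess 0 of 62 as well. After Benjamini-Hochberg adjustment in limma 0 of 62 passed (0% of all genes), with adjusted p of 0.498 for all 3 genes and a smallest adjusted p over all probes of 0.227. At an unadjusted p under 0.05 alone, 10 of 62 passed (16.1%), of which 2 were higher (5.67% of all genes) and 8 lower (3.79% of all genes). The 8 were ABCA1, ABCC4, ABCC5, ABCC8, ATP2B1, ATP2B2, ATP2C1 and ATP8B3.

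**Figure D3:**
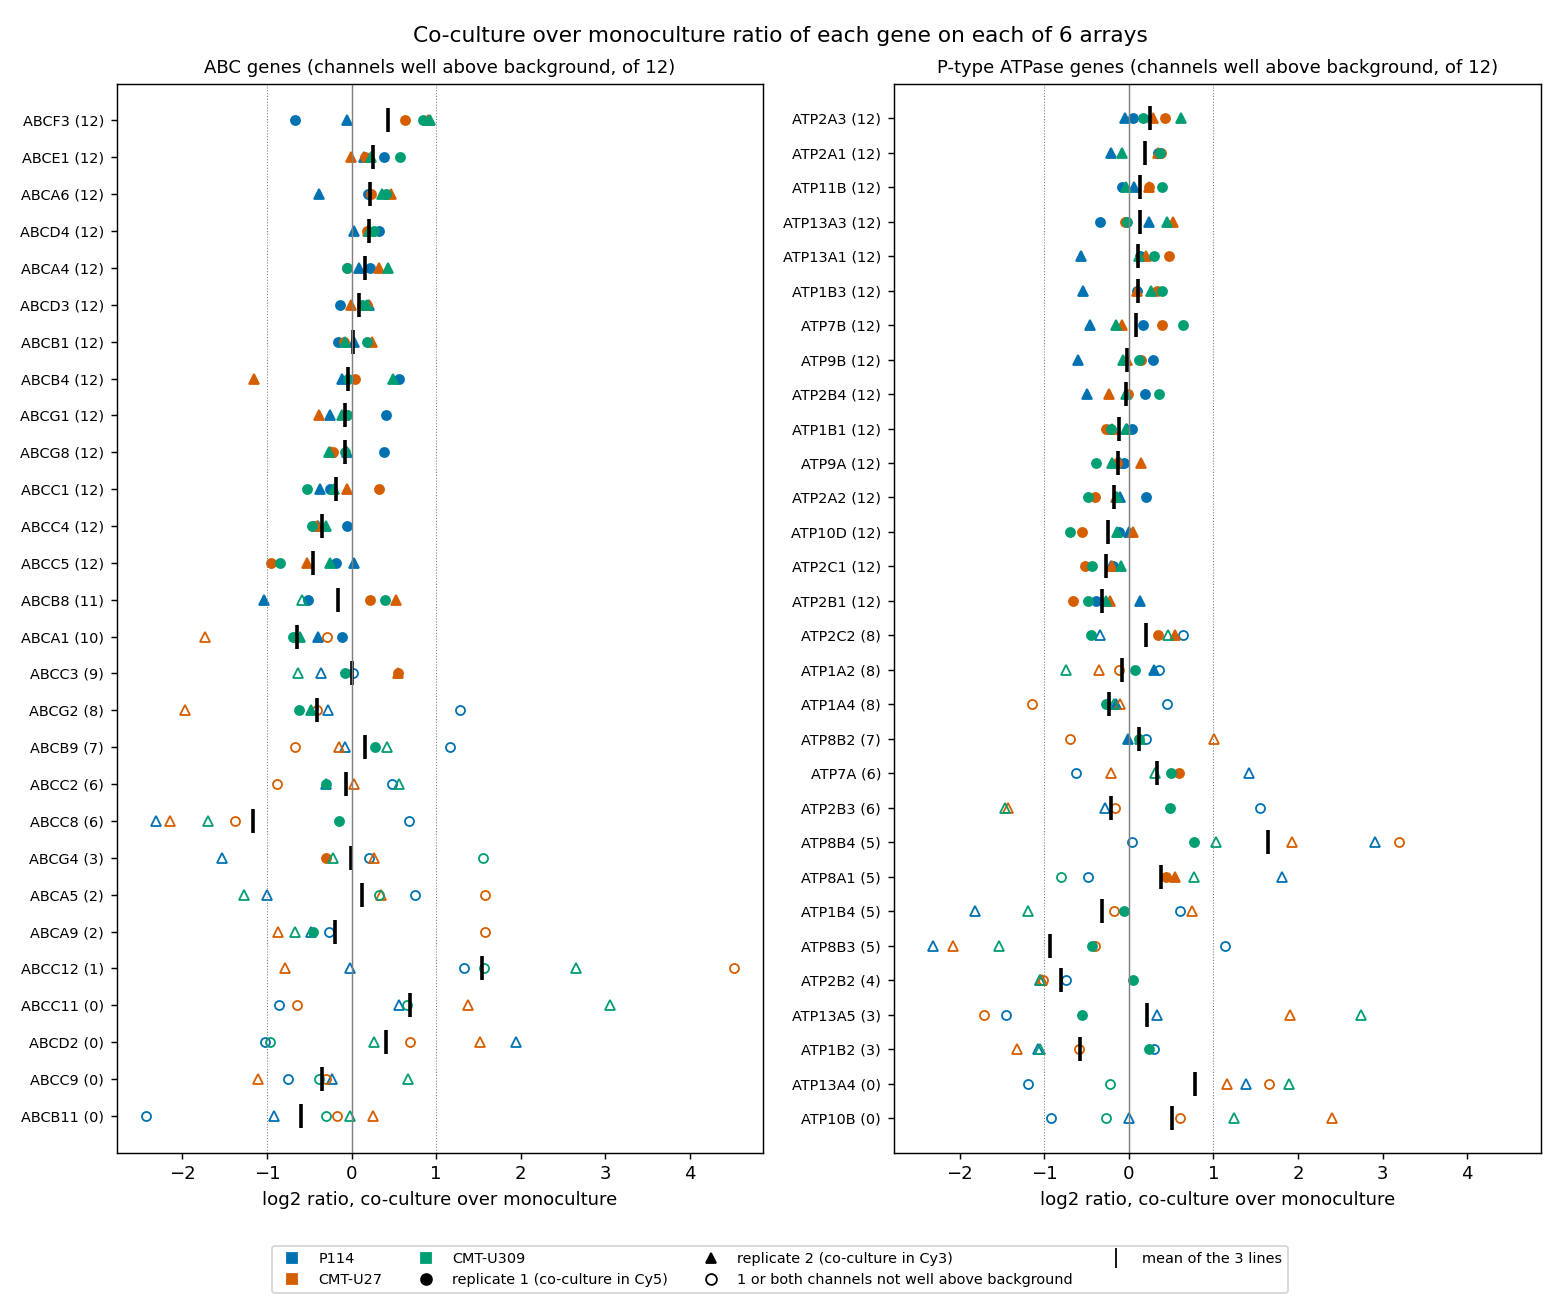
Log2 ratio of co-culture over monoculture (x axis) of 58 of the 62 tested genes on each of 6 arrays, coloured by line, with circles for replicate 1, triangles for replicate 2, open symbols where 1 or both channels were not well above background, and a bar for the mean of the 3 lines. The number beside a gene is that of channels well above background, and the 28 plotted genes at 12 have means from -0.46 to 0.43, while ATP8B4 (1.64), ABCC12 (1.54) and ABCC8 (-1.17), which lie past the dotted fold-change lines, have mostly open symbols.

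The 3 called genes were all dim. ATP8B4, a P4 flippase family gene, had log2 ratios of 0.04 and 2.90 in P114, 3.19 and 1.93 in CMT-U27, and 0.77 and 1.03 in CMT-U309, on replicates 1 and 2. It was above 0 on all 6 arrays, from almost no difference to the largest in CMT-U27, and the mean was 1.64 (SE 0.34, unadjusted p = 0.000782 in limma). Among monoculture channels 1 of 6 passed the background flag, and among co-culture channels 4 of 6 did.

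ABCC12, an ABCC family gene whose substrate is not settled, had ratios of 1.33 and -0.02 in P114, 4.52 and -0.79 in CMT-U27, and 1.56 and 2.65 in CMT-U309. The arrays of CMT-U27 opposed each other, and the highest of the 6 ratios came from the only channel in which the gene was well above background. The mean was 1.54 (SE 0.35, unadjusted p = 0.00153 in limma). Since 1 of 6 co-culture channels and no monoculture channel were well above background, no fold is given. Its probe 2, shown above, never exceeded an intensity of 10 and was not tested. The probe of ABCC11, its neighbour on chromosome 2, had a mean of 0.69 and was well above background in 0 of 12 channels.

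ABCC8, the sulfonylurea receptor that regulates ATP-sensitive potassium channels, had ratios of 0.68 and -2.32 in P114, -1.38 and -2.14 in CMT-U27, and -0.15 and -1.70 in CMT-U309. It was below 0 on 5 of 6 arrays, and in each line replicate 2 was lower than replicate 1. The mean was -1.17 (SE 0.31, unadjusted p = 0.00416 in limma), and among monoculture channels 5 of 6 passed the background flag, among co-culture channels 1 of 6. The other 3 ABCC8 probes gave -0.63, -0.56 and 0.29, and none was called. ABCC9, the companion receptor, was at -0.35 and was well above background in no channel.

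**Figure D4:**
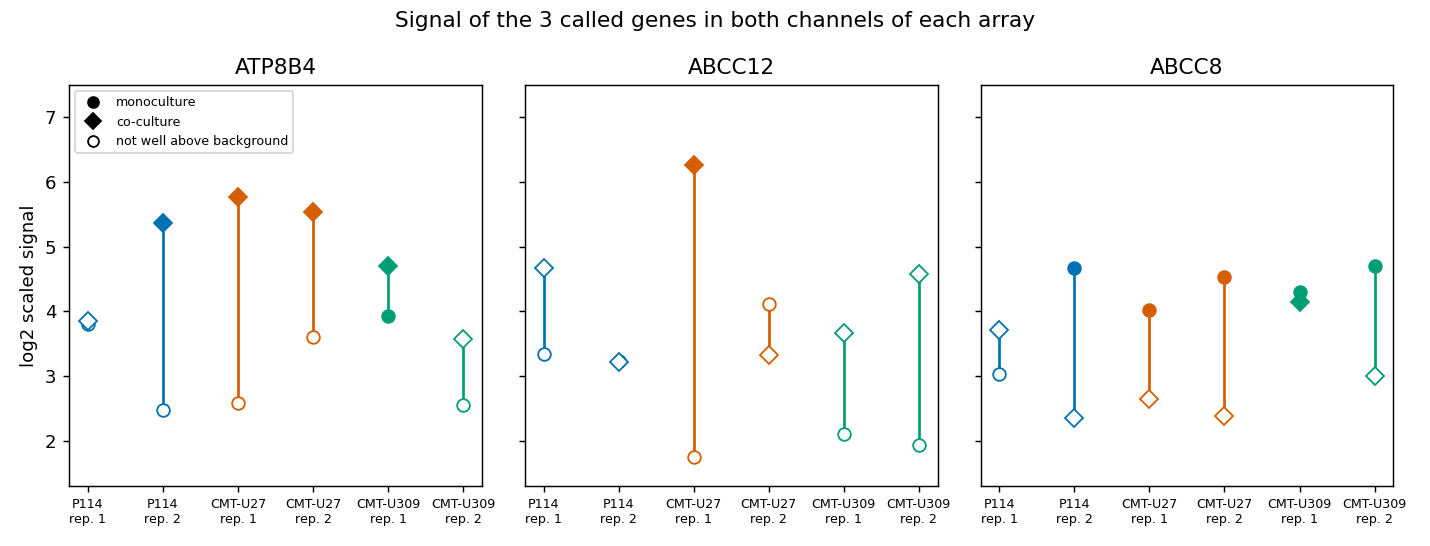
Log2 scaled processed signal (y axis) of ATP8B4, ABCC12 and ABCC8 in the monoculture (circle) and co-culture (diamond) channel of each array (x axis), with open symbols where a spot was not well above background. Nearly every pair of symbols has an open member: ATP8B4 was well above background in 5 of 12 channels, ABCC12 in 1 and ABCC8 in 6.

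Leaving out P114, whose arrays opposed each other, raised the number of calls, and the 3 called genes stayed called. With CMT-U27 and CMT-U309 alone, 6 members were called: ABCC11, ABCC12, ATP13A4 and ATP8B4 higher (4 of 62, with 3.70% of all genes) and ABCC8 and ATP8B3 lower (2 of 62, with 0.972% of all genes). The values of the 3 genes were then 1.73 for ATP8B4, 1.98 for ABCC12 and -1.34 for ABCC8. The fit without P114 rests on 2 lines, so its p-values depend largely on the spread that limma shares over all probes. Without P114, 14 of 62 had an adjusted p under 0.05 in limma, where 16.8% of all genes did. Besides 4 of the genes just named (ABCC12, ABCC8, ATP8B3 and ATP8B4) these included ABCA1 (-0.83), ABCC5 (-0.65), ABCG2 (-0.87), ATP10D (-0.34) and ATP2B1 (-0.41), which were lower in co-culture, and ABCA6 (0.37), ABCF3 (0.83) and ATP2A3 (0.38), which were higher. None of the 10 beyond those 4 exceeded a fold change of 2.

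Genes detected in all channels were measured closely enough to bound a change. The 31 of them had mean log2 ratios from -0.46 to 0.43, 16 were above 0 and 0 were called, where 9 of 7893 genes detected in all channels were called. The median SE was 0.13 for these 31 and 0.32 for the other 31, and the median absolute ratio was 0.157 and 0.351. All 31 of their 95% confidence intervals lay within a fold change of 2 in either direction, and 27 of the 31 included 0. These are limma intervals, which borrow spread from all probes and bound only the mean of the 3 lines. They do not bound the change in a single line: ABCF3 had means of -0.37 in P114 and 0.89 in CMT-U309.

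Among drug exporters, ABCB1 had ratios of -0.16 and 0.03 in P114, -0.10 and 0.24 in CMT-U27, and 0.19 and -0.07 in CMT-U309. Signs were mixed in every line, and the mean was 0.02 (95% confidence interval -0.25 to 0.29). ABCC4, which exports nucleotide analogs and prostaglandins, had ratios of -0.06, -0.39, -0.45, -0.41, -0.47 and -0.30 in the same order. All 6 were below 0, and the mean was -0.35 (SE 0.15, unadjusted p = 0.0480 and adjusted p = 0.498 in limma). ABCC5 had ratios of -0.18, 0.02, -0.96, -0.52, -0.85 and -0.26, with a mean of -0.46 (SE 0.14, unadjusted p = 0.0105), and its other probes gave -0.48 and -0.43. At the second ABCC5 probe, well above background in all channels, the ratios in CMT-U27 were -1.11 and -0.95. The means of both genes over the 3 lines were under the fold threshold, and neither passed after adjustment.

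ABCG2 had ratios of 1.28 and -0.28 in P114, -0.41 and -1.97 in CMT-U27, and -0.62 and -0.49 in CMT-U309. In CMT-U309, the line in which it was well above background throughout, both arrays were lower in co-culture. Over the lines the mean was -0.41 with a 95% confidence interval of -1.06 to 0.23. The remaining drug exporters had means of -0.18 (ABCC1), -0.07 (ABCC2), 0.01 (ABCC3), 0.33 (ATP7A) and 0.08 (ATP7B). In all, 1 of 11 tested drug-efflux genes was called (higher, with 0.668% of all genes called higher), 6 were above 0, and the median was 0.01.

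None of the lipid and sterol carriers was called, 3 of 10 were above 0, and their median was -0.06 with a range of -0.64 to 0.21. ABCA1 had ratios of -0.11 and -0.40 in P114, -0.29 and -1.74 in CMT-U27, and -0.69 and -0.61 in CMT-U309, all below 0. The mean was -0.64 (SE 0.19, unadjusted p = 0.00651 in limma), the second probe gave -0.60, and without P114 the mean was -0.83. The 4 ABCD genes had a median of 0.30, and 2 of them were well above background in all 12 channels, 1 in some and 1 in none. ABCD4 was above 0 on all 6 arrays, with a mean of 0.20. ABCE1 was at 0.25 at its brightest probe and at -0.25 at the other, so that its direction depended on the probe.

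Of the P-type ATPases, 1 was called (ATP8B4, higher, with 0.668% of all genes called higher). The Na,K-ATPase subunits had a median of -0.11 with 2 of 7 above 0, and the calcium pumps a median of -0.18 with 3 of 9 above 0. ATP2B1, a plasma membrane calcium pump, had ratios of -0.39, 0.13, -0.66, -0.22, -0.48 and -0.27 in the order used above (mean -0.31, SE 0.12, unadjusted p = 0.0218 in limma), and 5 of its 6 probes were below 0. ATP2C1 was below 0 on all 6 arrays, from -0.51 to -0.10, with a mean of -0.27, but its 5 probes ranged from -0.27 to 0.05. ATP2A3 had a mean of 0.25 and was above 0 on 5 of 6 arrays. ATP2B2 (-0.81) and ATP8B3 (-0.94) were lower on 5 of 6 arrays each but were well above background in 4 and 5 of 12 channels. The second probe of ATP2B2 gave 0.27. The flippases had a median of 0.05 with 5 of 10 above 0, and the 4 P5 ATPases were all above 0 with a median of 0.17. Of these 4, 2 were well above background in all 12 channels, 1 in some and 1 in none (ATP13A4, at 0.78).

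ABCF3 was lower in co-culture in P114 and higher in both other lines. It had ratios of -0.67 and -0.06 in P114, 0.63 and 0.90 in CMT-U27, and 0.85 and 0.93 in CMT-U309. Its second probe gave 0.14, -0.10, 0.89, 0.20, 0.96 and -0.90 and did not repeat the split. Among the 7893 genes detected in all channels, 532 (6.74%) were lower on both arrays of P114 and higher on the other 4, and 328 (4.16%) showed the opposite. Each line has a single pair of RNA samples, so the difference between lines was not tested.

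Partners and regulators of these proteins were read from a list of 24 genes, of which 17 were tested and 13 were well above background in all channels. In co-culture 1 of 17 was called, PLN (phospholamban, the inhibitor of ATP2A pumps), at 1.31 and well above background in 1 of 12 channels. Of all genes, 0.668% were called higher. In at least 1 pair of lines 5 of 17 were called, where 42.2% of all genes were. FXYD6, a Na,K-ATPase modulator, was higher in CMT-U27 by 6.19 than in P114 and by 6.17 than in CMT-U309. FXYD1, of the same family, was well above background in all 4 channels of CMT-U309 and in no channel of the other lines, so that CMT-U309 is given as at least 19.6-fold higher than P114 and at least 26.5-fold higher than CMT-U27 (adjusted p = 3.30e-07 and 9.28e-08 in limma). ATOX1, the copper chaperone that delivers copper to ATP7A and ATP7B, was higher in CMT-U27 by 1.60 than in P114 and by 1.23 than in CMT-U309. The copper importer SLC31A1 and the sterol-sensing receptor NR1H3 (LXR alpha), an activator of ABCA1 and ABCG1, were higher in P114 than in CMT-U27, by 1.06 and 1.11, and CMT-U27 over CMT-U309 was -1.22 for SLC31A1 and -1.37 for NR1H3.

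Myeloid markers were read as a check on carry-over from the MDSCs. Of 9 tested, 0 were called in co-culture, ITGAM and LYZ were well above background in 0 of 12 channels, and PTPRC in 3 of 12. CD68, ITGB2, CYBB and S100A8 were well above background in all 6 monoculture channels, which held no MDSCs. Detection of these markers therefore cannot show carry-over, which limits the check. Their summed signal was 1546 to 13705 in co-culture channels and 1417 to 8127 in monoculture channels, with the highest values in CMT-U27. There S100A8 and S100A9 were well above background in all 4 channels and higher in co-culture on both arrays, with log2 ratios of 0.89 and 0.82 for S100A8 and 0.84 and 0.76 for S100A9. Their means over the 3 lines were 0.09 and -0.27. The part of MDSC RNA in the ratios of the transporter and pump genes was not tested.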

How the data were processed

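Total RNA of 3 lines in co-culture and monoculture was labelled with a Quick Amp kit and read on 6 arrays of 2 colours. The authors deposited the scanner output of each array, with processed signal intensity per dye, background-subtracted and dye-normalized by the software, flags and probe annotation on canFam2. The file headers give Feature Extraction 10.10.1.1 and the submitters' processing notes 10.7.3.1. A further table that the authors deposited holds log10 ratios, which equal those of the scanner files once these are turned to co-culture over monoculture. All 6 of its medians are 0. No column was left unused for want of a sample (0 columns).

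Channels were brought to the same median, outlier spots and control spots were left out, spots of a probe were averaged, and probes that never exceeded an intensity of 10 were dropped, as in the methods of the study. A probe also needed a ratio on all 6 arrays, which left 40699 probes and 13173 genes, each gene standing at its brightest probe. Dye-swap arrays were averaged to 1 value per line. limma 3.58.1 in R 4.3.3 (lmFit, eBayes with a trend) tested the mean of 3 lines against 0, and a fit of the 6 RNA samples with condition as a term tested pairs of lines, with Benjamini-Hochberg adjustment over all probes. Where no spot of a group was well above background, a fold, if given, is a bound from processed signals after loess and Aquantile, without normexp. The bright group's mean is divided by the dim group's, in which each array counts at no less than its faintest detected probe. Spots below background hold substitute values from the software, so their ratios are uncertain, and the precision is limited by 3 lines. The resampling step named in the methods was left out.

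The replicate number marks the dye orientation. Deviations from the line means correlated between arrays of the same number at 0.36, 0.58 and 0.48, so the number pairs arrays across lines, and a fit with it as a block was an alternative. The genes and lists were chosen with earlier results of these data known. Named genes are those in the study's own gene list, drug-efflux genes, called genes, up to 5 in each direction with the largest ratio among well detected genes, up to 4 per direction and pair of lines, and the genes detected in all channels. Some genes of these families are in the counts and are not reported here by name. ABCB5 and ABCC10 were on the drug-efflux list, and no probe was found for them by name. Of 64 symbols, 63 were found in the RefSeq gene table. Alternatives changed background correction, scaling, filters, tests, probes, dye terms and the arrays used. The fits were tested on simulated data with known changes. The simulated noise was independent between probes and samples and held no dye, replicate or slide effect, so this check cannot speak to such effects.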

Additional observations from a re-analysis of the deposited data

Results flagged for a closer look

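Of 25 named genes, 2 had an array whose log2 ratio of co-culture over monoculture lay far from the other 5. They were ABCA1 on replicate 2 of CMT-U27 (-1.74, where neither array of that line was well above background in co-culture) and ABCG8 on replicate 1 of P114 (0.39). Chance flags about 1 in 20 such groups.

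In ABCF3, both arrays of P114 moved against all 4 arrays of the other lines. The mean log2 ratio in P114 was lower by a difference of -1.14 than in CMT-U27 and of -1.26 than in CMT-U309. These differences were not tested, since each line has a single pair of RNA samples.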

How the results depend on the processing

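The number of members called between co-culture and monoculture was 3, and 0 with normexp background correction and loess, 0 of 34 tested with only probes well above background in every channel of a condition, and 0 with the methods' t-test on the 3 lines (0 after adjustment too), which gave p of 0.0775 for ATP8B4, 0.0751 for ABCC12 and 0.0594 for ABCC8. It was 6 without P114, 5 without replicate 1 of P114 and 1 (ABCC12) without replicate 2 of P114, and leaving out a line or an array gave 1 to 6. The shares of all genes moved as well, from 0.668% called higher and 0.167% called lower in the main fit. They were 3.70% and 0.972% without P114, 3.03% and 1.4% without its replicate 1, and 0.0531% and 0.152% without its replicate 2. With the replicate block 3 members were called, the same genes, and the block changed no other call of these members. The median of members, 0.0012, was -0.11 without replicate 1 of P114, and -0.109 to 0.0528 over all arrays and lines left out. Single genes lost calls when an array was left out: ABCC8 at -0.87 without CMT-U27 and -0.91 without replicate 2 of CMT-U309, and ABCC12 at 0.66 without replicate 1 of CMT-U27. Among 465 values for 25 named genes, those of the 3 called genes kept their direction. Some genes that were not called changed sign when a line or an array was left out. ABCB1 ran from -0.03 to 0.08, ABCC2 from -0.22 to 0.11 and ABCC3 from -0.26 to 0.19. Between lines, members called fell from 18 to 8 (P114 and CMT-U27) and from 18 to 9 (CMT-U27 and CMT-U309) with normexp, loess and Aquantile, and rose from 8 to 24 (P114 and CMT-U309) with no scaling. Leaving out arrays gave 15 to 19, 7 to 10 (P114 and CMT-U309) and 16 to 19. The matching shares of all genes in these line comparisons were not counted, and the cause was not tested. Dim probes limit what can be said: all 3 genes called in co-culture were well above background in at most 6 of 12 channels.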
